A study of Mus musculus with 2 samples.

Results

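Mir23a, Mir27a and Mir24-2 lie side by side on mouse chromosome 8, and their paralogs Mir23b, Mir27b and Mir24-1 lie in the same order on chromosome 13. These 6 microRNA genes, chosen by their GENCODE M21 symbols out of 2202 annotated microRNA genes, were followed through small RNA sequencing of gastrocnemius, a calf muscle. All RNA came from female mice of the hybrid strain B6CASTF1/J at 14 days of age, untreated as far as the labels say, in 1 group of 2 biological replicates. The library size selection named in the labels was under 30 nt. The biosample of replicate 1 is named for 3 females, that of replicate 2 gives no number of animals, and both point to the same donor identifier. Nothing states that they are separate animals, so the spread given here is that between these samples and may be technical.

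A microRNA is cut from a hairpin in a longer primary transcript, and 1 or both arms of the hairpin become mature strands of about the length sequenced here. Bases 2 to 8 of a mature strand, the seed, set most of its pairing with target messages. Each of the Mir23, Mir27 and Mir24 clusters is known to be transcribed as 1 primary transcript. In skeletal muscle, miR-23a is known for repressing the atrophy-linked ubiquitin ligases Fbxo32 and Trim63, miR-27 for acting on Pax3 and myostatin, and miR-24 for a role in myoblast differentiation. Both clusters are also known in endothelial cells, where they act in vessel growth, so whole muscle holds more than 1 cell type that could supply them.

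The 6 hairpins are printed first because the letters shared between paralogs bear on every count below. They come from RefSeq (GRCm38.p6, the mm10 assembly), 5′ to 3′, all on the plus strand, and capitals mark the longest stretch that each hairpin shares with its paralog.
Mir23a: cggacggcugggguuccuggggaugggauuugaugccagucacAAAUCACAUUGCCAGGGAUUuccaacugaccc
Mir23b: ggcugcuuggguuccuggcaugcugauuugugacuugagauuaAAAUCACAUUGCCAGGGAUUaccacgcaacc
Mir27a: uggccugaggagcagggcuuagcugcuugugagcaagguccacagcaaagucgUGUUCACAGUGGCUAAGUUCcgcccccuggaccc
Mir27b: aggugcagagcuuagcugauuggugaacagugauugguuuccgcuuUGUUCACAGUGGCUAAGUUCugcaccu
Mir24-2: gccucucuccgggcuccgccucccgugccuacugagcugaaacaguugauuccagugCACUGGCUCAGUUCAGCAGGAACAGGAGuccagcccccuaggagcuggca
Mir24-1: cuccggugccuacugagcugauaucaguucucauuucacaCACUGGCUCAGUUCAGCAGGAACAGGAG

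The shared stretch was 20 bases for the Mir23 pair, 20 for the Mir27 pair and 28 for the Mir24 pair, and in each it lay on the 3′ side of the hairpin. Over the whole aligned hairpin, identical bases filled 59 of 80 columns (73.8%) for Mir23a and Mir23b. They filled 58 of 95 (61.1%) for Mir27a and Mir27b, and 60 of 110 (54.5%) for Mir24-2 and Mir24-1. Gaps count as columns, and hairpin lengths differ, such as 107 bases for Mir24-2 and 68 for Mir24-1. On the same measure, Mir23a and Mir27a, of different families, reached 55.3%. The percentages therefore do not rank how far the paralogs have drifted apart. Hairpins of different families within a cluster shared at most 7 bases in a row. The chromosome 8 hairpins were richer in G and C (56.0% to 61.7%) than those on chromosome 13 (47.9% to 51.5%).

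The mature strands allow a comparison at finer scale, with the seed in capitals. The RefSeq table used held 11 mature strands for these genes. It had no entry for miR-23b-3p, so the Mir23b hairpin takes its place below.
miR-23a-3p: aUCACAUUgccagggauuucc
miR-27a-3p: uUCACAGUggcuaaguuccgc
miR-27b-3p: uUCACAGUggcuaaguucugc
miR-24-3p (both genes): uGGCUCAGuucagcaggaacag
miR-24-2-5p: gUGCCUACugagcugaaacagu
miR-24-1-5p: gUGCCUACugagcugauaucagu

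Counting positions from 1 at the 5′ end, miR-27a-3p and miR-27b-3p differed over 21 bases only by C19U. The Mir23b hairpin carried all of miR-23a-3p except for the single change U19A (hairpin bases 46 to 66). The first 18 bases were thus the same within the Mir23 pair and within the Mir27 pair, seed included. The 22 bases of miR-24-3p occurred whole in both Mir24 hairpins. The 5p strands were less alike. Compared position by position without gaps, miR-27a-5p and miR-27b-5p differed at 8 of 22 bases, and miR-24-2-5p and miR-24-1-5p at 5 of 22. In such a count 1 inserted base shifts every later position, so both numbers can overstate the change. The Mir24 5p strands were the same over their first 16 bases. No other gene in the RefSeq table had a strand with the seed of miR-23a-3p or of the miR-27-3p strands. A strand without an entry there, like miR-23b-3p, could not be found by this search. The seed of miR-24-3p was also found in Mir5124b, Mir6369, Mir6410 and Mir6413, each with 0 reads in both replicates. A count of 0 allows up to 3 reads, or 1.12 CPM in the shallower library and 0.699 CPM in the deeper one (CPM, defined below; counting error only).

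To see which reads could be placed, every stretch of a given length in the 6 hairpins was looked up in all 2202 annotated hairpins, on either strand. Matches of a Mir24 hairpin to the microRNA gene annotated across from it at the same place are not in the counts that follow. At 22 nt, none of the stretches of Mir23a, Mir27a, Mir23b or Mir27b occurred in another hairpin. At 18 nt, 3 stretches of each of these 4 did. For the Mir24 genes the shared part was wider, with 9 of 86 stretches of 22 nt in Mir24-2 and 7 of 47 in Mir24-1 found elsewhere, and miR-24-3p lies wholly within it. The search covered exact matches among hairpins, not the whole genome. The deposited tables list reads that aligned to several places on a separate line (4219456 in replicate 1 and 6352784 in replicate 2). By that layout such reads add to no gene's count, so the Mir24 values are read here as lower bounds. The Mir24-2 and Mir24-1 genes together were assigned 445 and 618 reads.

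The clusters also differ in their surroundings. The Mir23a cluster spans 404 bases (Mir23a at chr8:84208518-84208592, Mir27a at chr8:84208672-84208758, Mir24-2 at chr8:84208815-84208921, all mm10). No annotated gene overlaps Mir23a or Mir27a, and the nearest protein-coding gene, Zswim4, lies 1756 bases beyond the cluster on the other strand. The last 2 bases of Mir24-2 overlap the long noncoding gene Gm26532. The Mir23b cluster spans 792 bases (Mir23b at chr13:63300484-63300557, Mir27b at chr13:63300712-63300784, Mir24-1 at chr13:63301208-63301275). It lies inside 2010111I01Rik, which RefSeq names Aopep, an aminopeptidase gene on the same strand. There Mir23b is intronic, while Mir27b and Mir24-1 fall within annotated exons of Aopep. All 3 also lie opposite an intron of Fancc, a Fanconi anaemia gene. The gap between the Mir27 and Mir24 hairpins was 56 bases in the Mir23a cluster and 423 in the Mir23b cluster.

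**Figure D1:**
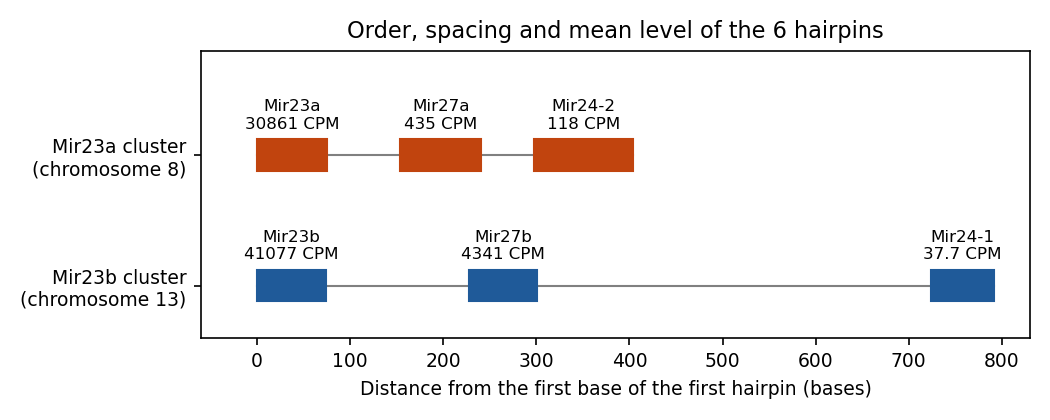
Map of both clusters to scale, with the distance in bases from the first base of the first hairpin on the horizontal axis, a box for each hairpin and its mean level (2 replicates) above it. In both rows the level by assigned reads falls from the Mir23 hairpin to the Mir24 hairpin, from 30861 to 118 CPM on chromosome 8 and from 41077 to 37.7 CPM on chromosome 13. The Mir24 levels are lower bounds, because reads that fit both Mir24 hairpins add to neither count.

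Levels are given as CPM, the reads on the gene's strand for every 1000000 such reads assigned to microRNA genes. They are not divided by length, because a small RNA read stands for 1 processed strand whatever the size of its hairpin. Replicate 1 had 2672454 assigned reads and replicate 2 had 4292012, which sets the worth of a read at 0.374 and 0.233 CPM. By its markers the tissue held muscle and other cells: the 9 listed skeletal muscle genes made up 9.63% and 8.59% of assigned reads, the 5 endothelial genes 12.2% in each replicate, and the 7 smooth muscle and fibroblast genes 3.67% and 3.79%. The 5 leukocyte genes made up 0.206% and 0.173%, the 2 erythroid genes 0.0437% and 0.0185%, and Mir122 of hepatocytes 0.0229% and 0.00142%. Nearly all of the muscle share was Mir206 (89899.6 ± 7361 CPM) and nearly all of the endothelial share Mir126a (118996 ± 385 CPM). Mir126b of endothelium stayed below 1 CPM in both replicates, Mir133a-2 of muscle in replicate 1, and Mir199a-1 of fibroblasts had no read. Reads that aligned to several places are missing here too. The lists hold gene copies, such as Mir133a-1 with Mir133a-2 and Mir199a-1 with Mir199a-2, whose counts may be too low for that reason. This was not tested, so a low count does not show that such a microRNA is scarce, and the shares do not rank the cell types. In whole muscle, fewer cells of a type and less RNA per cell cannot be told apart.

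Together the 6 genes took 7.47% of assigned reads in replicate 1 (exact 95% binomial interval 7.44% to 7.50%) and 7.90% in replicate 2 (7.88% to 7.93%), a mean of 7.69% ± 0.307 (SD, n = 2). Nearly all of this came from the Mir23 pair. Mir23a and Mir23b held 92.8% or more of the 6 genes' reads in each replicate, the Mir27 pair at most 6.93% and the Mir24 pair at most 0.223%.

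Mir23b was the highest of the 6, with 107985 reads (40407 CPM) in replicate 1 and 179181 reads (41748 CPM) in replicate 2, ranks 7 and 7 of all genes. Its mean was 41077 ± 948 CPM (SD, n = 2). Mir23a followed with 77370 reads (28951 CPM) and 140652 reads (32771 CPM), rank 9 in both, and a mean of 30861 ± 2701 CPM. The higher Mir23a replicate stayed below the lower Mir23b replicate, so the order of the Mir23 paralogs was the same in both libraries. Counting error was small beside the difference between libraries, with 95% intervals of 28750 to 29153 CPM and 32602 to 32940 CPM for Mir23a.

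The Mir27 genes stood lower and farther apart. Mir27b had 12564 reads (4701 CPM) in replicate 1 and 17087 reads (3981 CPM) in replicate 2, a mean of 4341 ± 509 CPM. Mir27a had 1270 reads (475 CPM) and 1695 reads (395 CPM), a mean of 435 ± 56.8 CPM. Each Mir27b value was thus far above each Mir27a value, and both genes were lower in replicate 2.

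The Mir24 genes were the lowest by these counts, in the reverse order of their clusters. Mir24-2 had 347 reads (130 CPM, 95% interval 117 to 144) in replicate 1 and 452 reads (105 CPM, 95.8 to 115) in replicate 2. Mir24-1 had 98 reads (36.7 CPM, 29.8 to 44.7) and 166 reads (38.7 CPM, 33.0 to 45.0). These intervals do not overlap between the genes, but they concern only the reads that were assigned, and the reads set aside within miR-24-3p could move either gene. A read of the whole miR-24-3p strand fits both hairpins, so by the layout it adds to neither count. The whole miR-23a-3p, miR-27a-3p and miR-27b-3p strands occur in no other hairpin, so counts of those genes can include the 3p arm. The Mir24 counts are thus not like for like with them. Low output of the Mir24 genes and reads set aside cannot be told apart here.

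**Figure D2:**
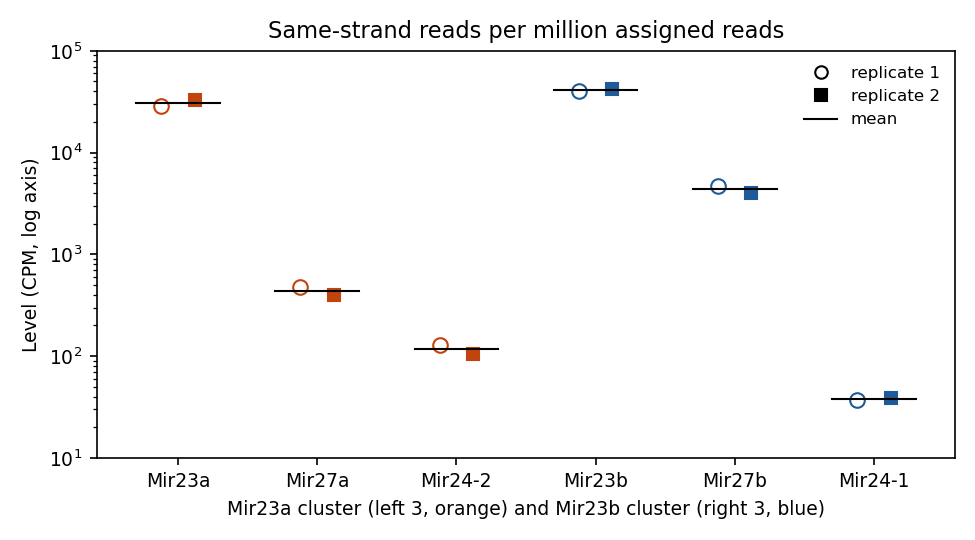
Level of each gene in CPM on a log axis, with replicate 1 as an open circle, replicate 2 as a filled square and their mean as a line. The order Mir23b, Mir23a, Mir27b, Mir27a, Mir24-2, Mir24-1 holds in both replicates, and no adjacent pair in that order overlaps. The place of the Mir24 genes rests on assigned reads only, and their levels are lower bounds.

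Beside the other microRNA genes, Mir23b stood between Mirlet7i and Mir411 in the order of mean CPM, with Mirlet7g above. Mir411, of the imprinted Dlk1-Meg3 cluster, stood at 28924 CPM in the first library and 38093 CPM in the second, a range that takes in both Mir23a values, so these neighbours did not differ beyond their spread. Mir23a was followed by Mir22, whose replicates (32112 and 23701 CPM) overlap its own, and then by Mir26b. Mir27b (ranks 36 and 40) was flanked by Mir337 and the fibroblast-rich Mir21a above and by Mir214 and Mir483 below, and its range overlapped those of Mir21a, Mir214 and Mir483. Mir27a (ranks 107 and 113) lay between Mir328 and Mir181c above and Mir25 and Mir29a below, and its range overlapped that of each but Mir328. Mir24-2 (ranks 163 and 170) had Mir107 and Mirlet7a-2 above and Mir208b and Mir30c-2 below, all 4 overlapping it. Mir24-1 (ranks 208 and 209) had Mir669c and Mir101a above and Mir874 and Mir345 below, overlapped Mir101a and Mir874, and shared its replicate 1 count with Mir345. With 2 libraries, no likeness of pattern across samples was computed.

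The first comparison concerns members of 1 cluster, which share a primary transcript. In the Mir23a cluster, Mir23a had 60.9 reads for each Mir27a read in replicate 1 (95% interval 57.6 to 64.4) and 83.0 in replicate 2 (79.1 to 87.1). In the Mir23b cluster the same ratio, Mir23b over Mir27b, was 8.59 (8.44 to 8.76) and 10.5 (10.3 to 10.7). The Mir23 to Mir27 ratio was therefore 7.09-fold higher in the Mir23a cluster than in the Mir23b cluster in replicate 1 (6.69 to 7.51, a normal interval on the log scale from counts) and 7.91-fold higher in replicate 2 (7.52 to 8.32). Within each cluster the ratio was higher in replicate 2, by 1.36-fold (1.27 to 1.47) on chromosome 8 and by 1.22-fold (1.19 to 1.25) on chromosome 13.

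As shares, Mir23a made up 98.2% ± 0.384 of its cluster's reads, Mir27a 1.40% ± 0.298 and Mir24-2 0.378% ± 0.0868 (SD, n = 2). Mir23b made up 90.4% ± 1.21, Mir27b 9.56% ± 1.21 and Mir24-1 0.0829% ± 0.00232. Both clusters gave most reads to Mir23, and the Mir27 share was larger in the Mir23b cluster in both replicates.

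Ratios to the Mir24 genes may be too high, because Mir24 counts are lower bounds. Short reads of the Mir23 and Mir27 genes can also fit another hairpin and be set aside, so these ratios have no strict bound. They ran from the smallest ratio within a cluster, Mir27a over Mir24-2, to the largest, Mir23b over Mir24-1. Mir27a had 3.66 reads per Mir24-2 read (3.25 to 4.13) in replicate 1 and 3.75 (3.38 to 4.17) in replicate 2. Mir27b had 128 reads per Mir24-1 read (105 to 158) and 103 (88.3 to 121). The Mir23b to Mir24-1 ratio was 1102 (904 to 1357) and 1079 (927 to 1265), and the Mir23a to Mir24-2 ratio was 223 (201 to 248) and 311 (284 to 342).

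The second comparison sets each gene beside its paralog. Mir23b exceeded Mir23a by 1.40-fold in replicate 1 (95% interval 1.38 to 1.41) and 1.27-fold in replicate 2 (1.27 to 1.28). Mir27b exceeded Mir27a by 9.89-fold (9.34 to 10.5) and 10.1-fold (9.59 to 10.6). Mir24-1 stood at 0.282 of Mir24-2 (0.223 to 0.354) and 0.367 (0.306 to 0.440). The 3 pairs therefore did not share 1 ratio between the clusters. The Mir23b cluster led slightly for Mir23 and far more for Mir27, by a like factor in both libraries (9.89-fold and 10.1-fold). It was the lower for Mir24 by the assigned reads. Summed over its 3 genes, the Mir23b cluster held 4.51% and 4.58% of assigned reads and the Mir23a cluster 2.96% and 3.33%, a ratio of 1.53 (1.51 to 1.54) and 1.38 (1.37 to 1.39).

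**Figure D3:**
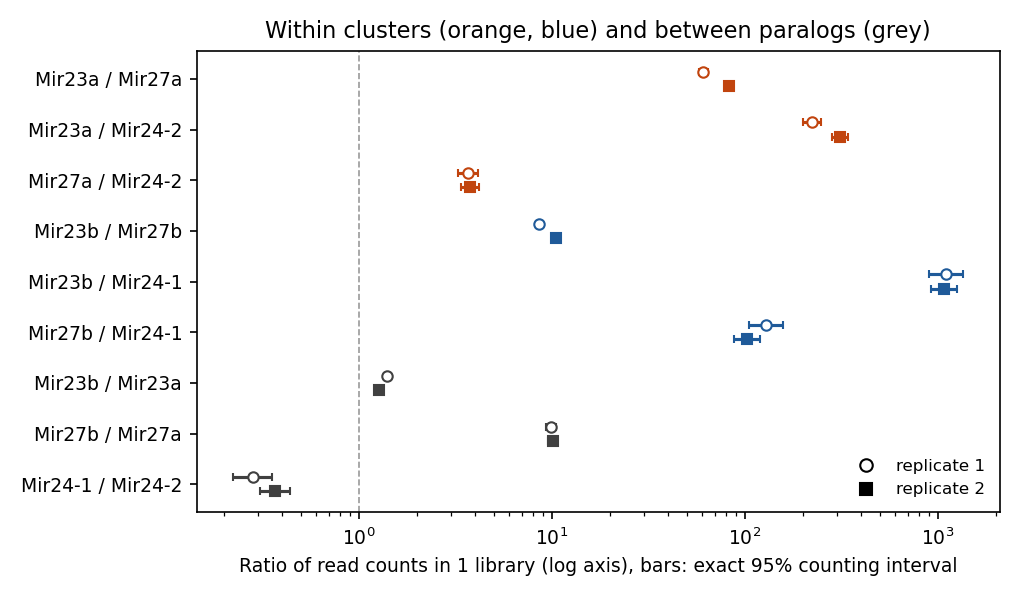
Ratio of the read counts of 2 genes in the same library on a log axis, with replicate 1 as open circles, replicate 2 as filled squares and bars for the exact 95% counting interval. Ratios within the Mir23a cluster (orange) and within the Mir23b cluster (blue) run from 3.66 to 1102, and those between paralogs (grey) from 0.282 to 10.1. Ratios of a Mir23 or Mir27 gene to a Mir24 gene may be too high, because Mir24 counts are lower bounds.

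The spread inside the 2 clusters was then set beside that of other clusters, taken as microRNA genes on 1 strand whose neighbouring starts lie within 10 kb. Of 38 clusters whose highest gene reached a mean of 100 CPM, 29 (76.3%) had a highest gene more than 10-fold above the lowest, so passing 10-fold, as both Mir23 clusters did, is common. The Mir23b cluster, 1090-fold from Mir23b to Mir24-1 by mean CPM, was the 7th widest, and the Mir23a cluster, 262-fold, the 10th. The median of the 38 was 43.6-fold. Clusters differ in size, and a cluster of many genes has more chances of a low one. The 5 clusters of 3 genes, which include both Mir23 clusters, had a median of 56.8-fold, with 3 past 10-fold. The widest 5 ran from Mir770 to Mir136, Mir379 to Mir3072, Mir206 to Mir133b, Mir341 to Mir370 and Mir17 to Mir92-1. The narrowest 5 were Mir181d with Mir181c (1.02-fold), Mirlet7f-2 with Mir98 (1.27-fold), Mir144 with Mir451a (1.36-fold), Mir421 with Mir374b (1.65-fold) and Mir99b to Mir125a (1.75-fold). In both Mir23 clusters the lowest gene is a Mir24 gene, whose count is a lower bound, so these spreads may be too wide. Lowest genes of other clusters may also lack reads that aligned to several places, which was not tested, so the ranks could shift.

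**Figure D4:**
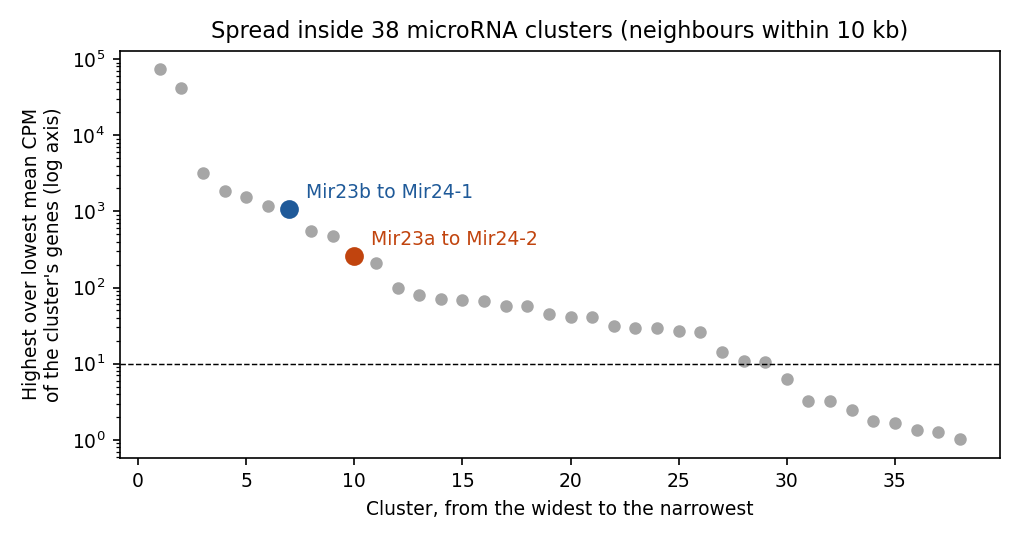
Highest over lowest mean CPM on a log axis for 38 microRNA clusters ordered from widest to narrowest, with a gene without reads taken at 3 reads and the 10-fold line dashed. The Mir23b cluster (blue) is 7th at 1090-fold and the Mir23a cluster (orange) 10th at 262-fold. Both spreads may be too wide, as the lowest gene is a Mir24 gene, whose count is a lower bound.

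The third comparison asks how far the members differed between the replicates. Mir23a was 1.13-fold higher in replicate 2 (95% counting interval 1.12 to 1.14) and Mir23b 1.03-fold higher (1.03 to 1.04). Mir27a stood at 0.831 of its replicate 1 level (0.772 to 0.894), Mir27b at 0.847 (0.827 to 0.867) and Mir24-2 at 0.811 (0.704 to 0.936). Mir24-1, at 1.05 (0.817 to 1.37), was too thinly read for a direction. Thus both Mir23 genes lay above 1 and both Mir27 genes below it, although each Mir23 gene sits in a cluster with 1 of the Mir27 genes.

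Of the 176 genes whose mean reached 100 CPM, 39.2% had an interval above 1 and 34.7% an interval below 1. Of the 5 members among them, 2 lay above and 3 below, and intervals that leave out 1 are common among genes read this deeply. None of the 5 passed 1.5-fold, as 7.95% of the 176 did, and the median gene was 1.12-fold apart. With 1 library a side these intervals compare libraries and cover counting error only. The summed skeletal muscle, leukocyte, erythroid and hepatocyte marker shares given above were lower in replicate 2, although 5 of the 9 muscle genes were higher there and Mir206 makes up nearly all of that sum. The share of smooth muscle and fibroblasts was higher, and the endothelial share was 12.2% in both; their part in these differences was not tested.

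The ratio of Mir27b to Mir27a in replicate 2 was 1.02 times that in replicate 1 (0.944 to 1.10). For the Mir23 pair that factor was 0.913 (0.902 to 0.923) and for the Mir24 pair 1.30 (0.977 to 1.73). Within the Mir23a cluster, the factor for Mir27a over Mir24-2 was 1.02 (0.875 to 1.20).

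**Figure D5:**
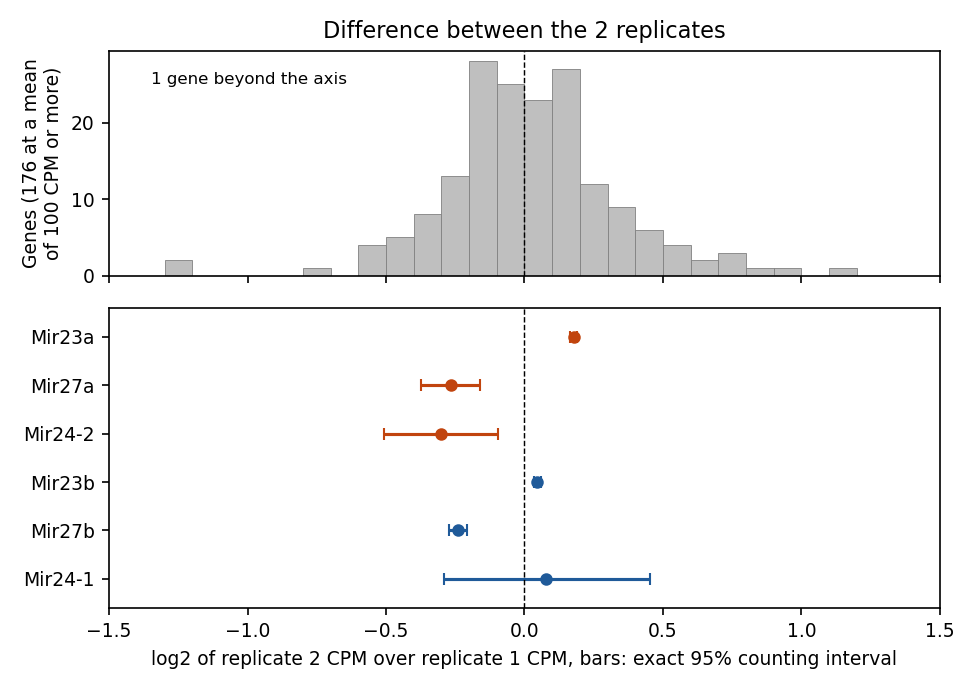
Top, histogram of log2 CPM in replicate 2 over replicate 1 for the 176 genes whose mean reached 100 CPM, 1 of them beyond the axis. Bottom, the 6 genes with exact 95% counting intervals on the same axis: Mir23a (0.18) and Mir23b (0.05) lie above 0, Mir27a (-0.27), Mir27b (-0.24) and Mir24-2 (-0.30) below it, and the interval of Mir24-1 spans 0.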

How the data were processed

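The authors deposited 1 table of raw counts per library, made on mm10 with GENCODE M21 microRNA genes, per the file headers of the deposited description. The sources used here name no aligner or counter. From the layout and values, the 3 count columns were read as both strands, the gene's strand and the opposite strand. The second was used. The 4 summary lines, which name no gene, held 66.6% and 64.6% of reads and stayed out of totals. Reads of the 5p and 3p arms are counted together, except that a read of the whole miR-24-3p strand fits both Mir24 hairpins. By the layout such a read adds to neither Mir24 count.

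Levels (CPM) are counts per 1000000 assigned reads. Intervals are exact (Clopper-Pearson) binomial at 95%, ratios use the binomial share of 1 count in the pair, and ratios of ratios a normal interval on the log scale. Without molecular identifiers, all cover counting error only. With 1 group there was no test and no p-value. The interval and cluster code was tested on simulated data. The members and lists were chosen with earlier results of these data known. The rule named the 6 members, microRNA genes opposite them, genes sharing a 3p seed, 2 rank neighbours on each side, and the 5 widest and 5 narrowest clusters. Tools were Python 3.11.15, scipy 1.17.1, biopython 1.88, edgeR 4.0.16 (TMM) and DESeq2 1.42.0 (size factors).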

Additional observations from a re-analysis of the deposited data

Results flagged for a closer look

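Reads on the strand opposite Mir24-1, outside the counts used above, numbered 23 in replicate 1 and 35 in replicate 2, beyond the limit of 3 reads in both libraries. Mir3074-1, which is annotated on that strand (chr13:63301199-63301283), covers the whole hairpin, and its own counts were the same 23 and 35 reads (8.61 and 8.15 CPM). The other opposite-strand gene, Mir3074-2 across from Mir24-2, had 1 read in each replicate. Mir23a, Mir27a, Mir23b and Mir27b had 0 reads on the opposite strand.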

How the results depend on the processing

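Counting both strands gave both Mir24 genes 0 reads, each lying across from another microRNA gene, and that column lists 708973 and 1064808 reads as ambiguous between genes. Ratios to a Mir24 gene could then not be computed. It moved Mir23a to 41493, Mir27a to 586, Mir23b to 55259 and Mir27b to 5847 CPM, and the cluster sums to 42079 and 61105 CPM, with fewer assigned reads below the line. Per 1000000 of all reads, the levels were 10630 for Mir23a, 149 for Mir27a, 40.3 for Mir24-2, 14130.0 for Mir23b, 1489 for Mir27b and 12.96 for Mir24-1. Without the 10 highest genes in the denominator they were 79813, 1129, 305, 106337, 11262 and 97.5 in that order. Ratios between Mir23 and Mir27 genes used no denominator. These genes had the same counts under both strand settings, so their ratios could not change and the setting does not check them. Taking each replicate alone gives the per-replicate values of the report. TMM and DESeq2 size factors shifted log2 ratios by -0.03 and -0.02, and no member's direction or side of 1.5-fold changed. No paired analysis was possible because there is 1 group. The count of genes past 1.5-fold rose from 14 of 176 to 344 of 660 when every gene with a read was kept, which adds genes of few reads. Clusters past 10-fold numbered 19 of 24 when the highest gene had to reach 1000 CPM, which leaves fewer clusters. The Mir23b cluster ranked 6th to 8th widest and the Mir23a cluster 8th to 12th over the settings tried. Depth limits Mir24-1 most, at 98 and 166 reads.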

Other observations

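After the replicate ratios were seen, differences in log2 ratio between genes were collected for the 6 genes and over all pairs of the 176 genes whose mean reached 100 CPM. The Mir27 paralogs differed by 0.03, the Mir23 paralogs by 0.13 and the Mir24 paralogs by 0.38. In the Mir23a cluster, Mir23a differed from Mir27a by 0.45 and from Mir24-2 by 0.48, and Mir27a from Mir24-2 by 0.04. In the Mir23b cluster, Mir23b differed from Mir27b by 0.29 and from Mir24-1 by 0.03, and Mir27b from Mir24-1 by 0.32. Small and large differences thus occurred both between paralogs and within clusters. Over 99 pairs that share a seed but lie in different clusters the median difference was 0.16, and over 16 pairs that share a seed within a cluster it was 0.28. Over 585 pairs in 1 cluster with different seeds it was 0.26, and over 14700 pairs with neither link 0.27. Pairs share genes and both libraries, so these medians are a description without a test.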
